A study of Homo sapiens with 18 samples.

Results

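The genes described here are 6 genes of antigen presentation by the major histocompatibility complex (MHC): the class I genes HLA-B and HLA-E, and the class II pathway genes HLA-DRB1, HLA-DPB1, HLA-DMB and CD74. They were taken as all probe sets of the deposited microarray table annotated to exactly 1 of these symbols, which gave 11 of 23416 probe sets. The members were selected on measured values: HLA-B, HLA-E, HLA-DRB1 and HLA-DPB1 were chosen by their lower signal in cells with NFYA short hairpin RNA (shRNA), and the values behind the choice of HLA-DMB and CD74 are not recorded. The members' values in the comparison of NFYA shRNA with GFP, and wherever C32 arrays enter, are therefore given as a description, with no test.

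RNA of human melanoma lines was measured on 18 Affymetrix 3′ arrays, in 6 groups of 3, as log2 signals made with GCRMA by the submitters. The line A375M2, a metastatic derivative of A375, carried a lentivirus with shRNA against NFYA (shNFYA), shRNA against FHL2 (shFHL2), full-length PMEL driven by the CMV promoter (PMEL), or a GFP control vector (GFP). The melanoma line C32 carried shRNA against FHL2 or GFP. NFYA is the subunit of the transcription factor NF-Y that reads CCAAT, FHL2 a LIM-domain scaffold protein and PMEL the fibril protein of melanosomes. The FHL2 shRNA was a pool of 3 constructs. All A375M2 cells described in the protocol were selected with a drug for their vector, sorted for high GFP and kept 15 days in selective medium, with RNA from 3 separate experiments. The labels name no group with a non-targeting shRNA, do not say which of the described GFP vectors the GFP arrays hold, and give no culture details for C32 or for the NFYA shRNA. Separate experiments are recorded for the A375M2 groups, shNFYA among them, and not for C32. For the C32 arrays a p-value rests on array-to-array spread, which may be technical. For shNFYA that may hold too, as its culture is not described.

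MHC class I molecules carry peptides from inside the cell to its surface, where cytotoxic T cells read them. HLA-B is a classical, highly variable heavy chain, and HLA-E a little-varied one that natural killer cells read. Class II molecules are pairs of an alpha and a beta chain. HLA-DRB1 and HLA-DPB1 encode beta chains of the DR and DP pairs, CD74 encodes the invariant chain that fills the groove until peptide is loaded, and HLA-DMB encodes the beta chain of HLA-DM, the exchange factor that swaps the remnant of the invariant chain for peptide. Class II genes are known mainly from professional antigen-presenting cells, and many melanomas also express them. Their promoters hold a conserved X box and Y box. The RFX factors (RFX5, RFXANK and RFXAP) bind the X box, NF-Y binds the CCAAT letters of the Y box, and the coactivator CIITA joins the bound factors. Class I promoters carry a related module, at which NLRC5 acts in the place of CIITA.

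The windows upstream of the members' starts are shown because NF-Y reads the letters CCAAT. Of the 6 genes, 5 had an entry in the RefSeq promoter table (GRCh38.p14), and HLA-E had none. The 250 bases before each start are printed 5′ to 3′ on the gene's own strand, with CCAAT, or ATTGG for a match on the other strand, in capitals. These are reference letters, not those of A375M2 or C32.
HLA-DRB1 (chr6:32589849-32590098, minus strand): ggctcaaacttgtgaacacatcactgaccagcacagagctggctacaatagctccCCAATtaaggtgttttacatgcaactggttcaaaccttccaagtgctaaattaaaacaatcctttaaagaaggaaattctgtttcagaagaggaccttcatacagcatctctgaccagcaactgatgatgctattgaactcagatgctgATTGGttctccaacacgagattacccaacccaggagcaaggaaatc
HLA-DPB1 (chr6:33075740-33075989, plus strand): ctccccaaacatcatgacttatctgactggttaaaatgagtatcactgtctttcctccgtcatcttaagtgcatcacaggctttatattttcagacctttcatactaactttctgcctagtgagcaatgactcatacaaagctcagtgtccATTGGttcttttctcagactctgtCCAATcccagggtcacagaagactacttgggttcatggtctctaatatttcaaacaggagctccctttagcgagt
HLA-DMB (chr6:32941029-32941278, minus strand): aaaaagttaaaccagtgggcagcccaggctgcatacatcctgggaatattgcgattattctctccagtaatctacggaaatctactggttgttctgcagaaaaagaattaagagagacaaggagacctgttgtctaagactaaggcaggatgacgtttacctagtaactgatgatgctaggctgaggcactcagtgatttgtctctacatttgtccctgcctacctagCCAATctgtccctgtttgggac
CD74 (chr5:150412911-150413160, minus strand): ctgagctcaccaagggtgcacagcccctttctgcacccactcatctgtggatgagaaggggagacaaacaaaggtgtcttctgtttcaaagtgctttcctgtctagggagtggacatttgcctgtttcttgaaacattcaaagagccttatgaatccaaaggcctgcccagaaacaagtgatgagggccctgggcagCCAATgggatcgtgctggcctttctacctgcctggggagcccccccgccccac
HLA-B (chr6:31357180-31357429, minus strand): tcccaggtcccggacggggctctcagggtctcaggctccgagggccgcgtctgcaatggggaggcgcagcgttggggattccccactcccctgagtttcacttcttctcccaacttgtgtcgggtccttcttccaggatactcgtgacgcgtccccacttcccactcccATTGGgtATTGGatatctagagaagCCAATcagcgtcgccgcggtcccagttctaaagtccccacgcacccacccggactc
All 5 windows held the letters CCAAT on either strand, as did 32% of 35116 promoter windows of the same length. HLA-B had 3 matches, HLA-DRB1 and HLA-DPB1 had 2 each, and HLA-DMB and CD74 had 1 each. The match nearest the start began 22 bases before it in HLA-DMB, 46 in HLA-DRB1, 53 in CD74, 56 in HLA-B and 75 in HLA-DPB1. HLA-DRB1 and HLA-DMB also shared a run of 14 letters, AACTGATGATGCTA, which began 76 bases before the start in HLA-DRB1 and 85 bases before it in HLA-DMB. Of the 35116 windows these 2 held it, or 0.0057%. A match is a description of these letters and does not show binding. In the same build HLA-E lies on chromosome 6 (30489509-30494194), as do HLA-B (31353875-31357179), HLA-DRB1 (32578775-32589848), HLA-DMB (32934636-32941028) and HLA-DPB1 (33075990-33089696), while CD74 lies on chromosome 5 (150401639-150412910).

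Some arrays are not independent or stand apart. Over 19793 probe sets C32 GFP replicate 3 differed from the average of its 2 companions by an SD of 0.0083 log2, where other arrays differed from theirs by 0.128 to 0.189, and it was left out. With it included, no difference of a member moved by more than 0.01 log2 and 0 calls of members changed. Replicate 3 of A375M2 PMEL and replicate 3 of A375M2 GFP, added together, equalled the mean of replicates 1 and 2 of the first group plus the mean of replicates 1 and 2 of the second, with an SD of 0.00651, against 0.166 to 0.198 for other pairs of groups. Together they add at most 1 independent array, so p-values that use them are too small. Without them, no difference of a member moved by more than 0.059 log2 and no tested member gained or lost its call. At 629 probe sets the A375M2 shFHL2 arrays shared a low value to within 0.001, and at 351 of these the shNFYA arrays shared it too, but at 0 the PMEL or GFP arrays. The mean of 3 probe sets for 18S RNA was 14.19 in shNFYA and 14.18 in shFHL2 arrays, against 11.08 in PMEL and 12.52 in GFP arrays of A375M2. These array differences and the shRNA therefore cannot be told apart in A375M2 comparisons of an shRNA arm with GFP.

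The targeted genes followed the labels. NFYA (probe set 204108_at) was 7.69, 7.34 and 7.54 in A375M2 shNFYA arrays, against 9.40, 9.65 and 9.72 in GFP arrays, and lay between, at 8.76 to 8.95, in A375M2 shFHL2 arrays. FHL2 was 7.01, 7.26 and 7.25 in A375M2 shFHL2 arrays, against 11.27, 11.17 and 11.18 in GFP arrays, and 6.1, 6.1 and 5.3 in C32 shFHL2 arrays, against 11.12 and 11.03 in C32 GFP arrays. PMEL was 9.0, 8.88 and 8.96 in A375M2 PMEL arrays, against 5.78, 5.37 and 5.55 in GFP arrays. The labelled cell type was also checked. Of 9 melanocyte markers 8 had a probe set; 4 of them (PMEL, MLANA, TYR and TYRP1) were under log2 4 in every A375M2 shFHL2 array, 3 (PMEL, MLANA and TYR) in every shNFYA array, and MLANA in every A375M2 PMEL and GFP array. Their summed level was 13.04 to 13.12 in shNFYA and 13.14 to 13.24 in shFHL2 arrays, against 15.19 to 15.25 in PMEL and 15.18 to 15.28 in GFP arrays, and 15.38 to 15.46 in C32 shFHL2, against 16.42 to 16.50 in C32 GFP arrays. Leukocytes express class II genes strongly, and of 10 leukocyte markers 2 had a usable probe set. PTPRC, the leukocyte surface phosphatase CD45, was under 4 in every A375M2 array and was 7.96, 7.67 and 7.78 in C32 shFHL2 arrays, against 8.61 and 8.65 in C32 GFP arrays. LYZ (213975_s_at), the lysozyme of myeloid cells, was 9.29 to 9.53 in A375M2 shNFYA and 9.33 to 9.50 in shFHL2 arrays, against 3.37 to 3.80 in PMEL and 3.59 to 4.0 in GFP arrays. In C32 LYZ was 5.69, 5.01 and 6.35 with FHL2 shRNA, against 2.71 and 4.69 with GFP. Of 7 fibroblast markers 6 had a probe set, with a summed level of 8.74 to 8.93 in A375M2 shNFYA, 8.92 to 9.04 in shFHL2 and 10.21 to 10.25 in PMEL arrays, against 11.50 to 11.69 in GFP arrays, and of 12.73 to 12.75 in C32 shFHL2, against 12.15 to 12.32 in C32 GFP arrays. COL1A2 was under log2 4 in every A375M2 array, and FAP, a fibroblast surface protease, in every A375M2 shNFYA and shFHL2 array. Of 7 keratinocyte and epithelial markers 3 had a probe set, with a summed level of 12.10 to 12.19 in A375M2 shNFYA, 12.74 to 12.81 in shFHL2 and 11.29 to 11.38 in PMEL arrays, against 11.35 to 11.51 in GFP arrays, and all 3 were under 4 in every C32 array. The summed levels of melanocyte and fibroblast markers were thus lower, and LYZ and the summed level of keratinocyte markers higher, in the A375M2 shRNA arms than in GFP arrays. A sum is weighted to the brightest markers, and single markers went otherwise. SOX10 (209842_at) was 12.65, 12.78 and 12.75 in shNFYA arrays, against 12.75, 12.79 and 12.74 in GFP arrays. Of 5 tested fibroblast markers 4 fell in each A375M2 shRNA arm, while COL1A1 rose by 1.02 with NFYA shRNA and 1.28 with FHL2 shRNA. The part of these shifts in the results below was not tested, and fewer cells of a type and less RNA per cell cannot be told apart in bulk RNA.

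HLA-DRB1 was read by the single-gene probe set 208306_x_at. Its log2 signal was 12.24, 12.35 and 12.16 in A375M2 shNFYA arrays, 13.11, 13.19 and 13.18 in shFHL2 arrays and 13.72, 13.73 and 13.71 in PMEL arrays, against 13.69, 13.51 and 13.62 in GFP arrays. In C32 it was 13.36, 13.35 and 13.38 with FHL2 shRNA, against 12.66 and 12.76 with GFP. The shNFYA arrays were the lowest of all 6 groups, and no group overlapped another. The order of the levels ran from A375M2 PMEL over GFP, C32 shFHL2, A375M2 shFHL2 and C32 GFP down to shNFYA, and PMEL and GFP at its top did not differ in the test given below. Another 4 probe sets annotated to this gene together with other DRB genes, some also with HLA-DQB1, name no single gene and were left out. On 204670_x_at the A375M2 shFHL2 arrays (13.34, 13.31 and 13.34) overlapped the GFP arrays (13.35, 13.29 and 13.40). They were lower on 215193_x_at (13.31, 13.32 and 13.38, against 13.85, 13.77 and 13.76) and on 209312_x_at, and 238900_at was under log2 4 in both groups.

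HLA-DPB1 had 1 probe set, 201137_s_at. It measured 10.91, 10.90 and 10.86 in A375M2 shNFYA arrays, 11.93, 11.91 and 12.03 in shFHL2 arrays and 12.13, 12.25 and 12.23 in PMEL arrays, against 12.28, 12.26 and 12.23 in GFP arrays. The C32 shFHL2 arrays read 12.42, 12.47 and 12.49, against 11.91 and 11.99 in C32 GFP arrays. The shNFYA arrays lay below every other group, and the C32 shFHL2 arrays were the highest of all. PMEL and GFP arrays of A375M2 overlapped, as did A375M2 shFHL2 and C32 GFP arrays.

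HLA-DMB was likewise read by 1 probe set, 203932_at. In A375M2 the values were 9.07, 8.98 and 8.95 with NFYA shRNA, 10.32, 10.26 and 10.26 with FHL2 shRNA and 10.17, 10.18 and 10.27 with PMEL, against 10.26, 10.32 and 10.21 with GFP. C32 shFHL2 arrays had 9.0, 9.04 and 9.05, against 7.74 and 7.84 in C32 GFP arrays. Of the 6 members, each on its brightest probe set, this gene had the widest range between groups. HLA-E had a wider one on its probe set 200904_at. For HLA-DMB the C32 GFP arrays were lowest, and C32 shFHL2 and A375M2 shNFYA arrays overlapped in the middle. A375M2 shFHL2, PMEL and GFP arrays overlapped at the top.

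CD74 was highest on probe set 209619_at. The values were 12, 12.33 and 12.35 in A375M2 shNFYA arrays, 12.98, 13.06 and 13.00 in shFHL2 arrays and 12.89, 12.91 and 12.84 in PMEL arrays, against 13.03, 13.00 and 13.08 in GFP arrays. With FHL2 shRNA in C32 they were 11.63, 11.61 and 11.65, against 11.18 and 11.28 with GFP. All A375M2 arrays stood above all C32 arrays, and within A375M2 only the shFHL2 and GFP arrays overlapped. A second probe set, 1567628_at, stayed between 2.95 and 4.60 over the arrays in use and was close to the low end of the table's values.

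HLA-B was read by 3 probe sets. The brightest, 209140_x_at, measured 13.71, 13.81 and 13.84 in A375M2 shNFYA arrays, 14.03, 13.95 and 14 in shFHL2 arrays and 14.69, 14.66 and 14.72 in PMEL arrays, against 14.81, 14.73 and 14.72 in GFP arrays. C32 shFHL2 arrays had 13.22, 13.25 and 13.24, against 14.05 and 14.05 in C32 GFP arrays. FHL2 shRNA arrays were lower than GFP arrays in each line, and the C32 shFHL2 arrays were the lowest of all groups. The probe sets 208729_x_at and 211911_x_at gave the same direction against GFP in all shRNA arms, with differences between -1.37 and -0.69.

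HLA-E likewise had 3 probe sets. On the brightest, 200905_x_at, the values were 12.11, 12.12 and 12.24 in A375M2 shNFYA arrays, 12.72, 12.72 and 12.70 in shFHL2 arrays and 13.49, 13.56 and 13.51 in PMEL arrays, against 13.66, 13.54 and 13.61 in GFP arrays. The C32 values were 12.77, 12.68 and 12.66 with FHL2 shRNA, against 13.34 and 13.25 with GFP. The shNFYA arrays were the lowest, C32 and A375M2 shFHL2 arrays overlapped, and so did PMEL and GFP arrays at the top. The probe sets agreed in direction for each shRNA arm against GFP and differed in size: for shNFYA the difference was -2.64 on 200904_at, -1.44 on 200905_x_at and -0.88 on 217456_x_at. The suffix _x_at marks probes that can match several transcripts, and 6 of the 11 probe sets carry it, so signals of HLA-B, HLA-E and HLA-DRB1 may include those of near-identical class I or DRB genes. The same holds for HLA-C, HLA-G and HLA-F below, whose probe sets all carry the suffix, so their values are not separate from those of HLA-B and HLA-E. One of the 4 probe sets of HLA-G, 211530_x_at, differed by 0 for shNFYA against GFP and by 0.05 for A375M2 shFHL2 against GFP.

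**Figure D1:**
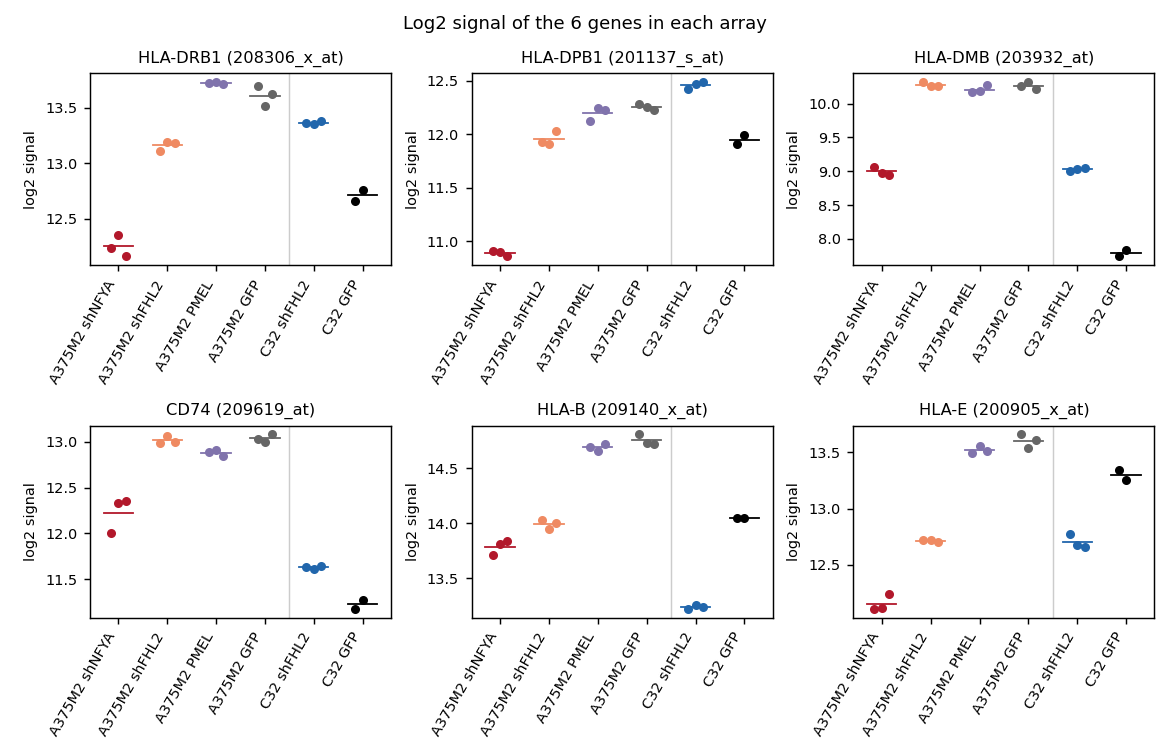
Log2 signal (vertical axes, each with its own range) of the 6 genes in the 6 groups (horizontal axes); points are arrays, lines are group means, and C32 GFP has 2 arrays. The A375M2 shNFYA arrays are the lowest A375M2 arrays in all 6 panels, while the C32 shFHL2 arrays lie above C32 GFP in the 4 class II pathway panels and below it for HLA-B and HLA-E.

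In the comparison that named 4 of them, A375M2 shNFYA against GFP, all 6 genes were lower and the arrays of the groups did not overlap for any. The share of all genes without overlap is not given here, so nothing is read from the overlap in this or the later comparisons. The differences were -1.44 for HLA-E, -1.37 for HLA-DPB1, -1.36 for HLA-DRB1, -1.26 for HLA-DMB, -0.97 for HLA-B and -0.81 for CD74, or 1.75 to 2.72 times lower signal. In the same comparison limma called 86.9% of 10918 genes at an adjusted p under 0.05, 43.6% higher and 43.2% lower, and nothing is read from the members' count, since the comparison was used to choose them.

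Antigen presentation genes outside the 6 were taken from lists chosen with earlier results of these data known. Of 27 tested genes, 16 fell and 7 rose in shNFYA against GFP (limma, adjusted p under 0.05), with a median of -0.33 against 0 over all genes. All 6 other class II genes fell, with a median of -0.98. HLA-DOA, a chain of the HLA-DO pair that restrains HLA-DM, had the largest of these differences: 3.49, 3.61 and 3.83 in shNFYA arrays, against 8.25, 8.24 and 8.32 in GFP arrays. That is a difference of -4.63 (SE 0.098, limma adjusted p = 6.96e-18), or -4.27 with values under log2 4 set to 4. The DP alpha chain HLA-DPA1 fell by 0.86 (adjusted p = 1.17e-13, limma), and HLA-DRA, the DR alpha chain, by 0.72 (adjusted p = 3.37e-11, limma); HLA-DRA lies outside the naming rule here and was chosen after its value was seen. HLA-DRB4 fell by 1.30 and HLA-DQB1, the DQ beta chain, by 1.10 on the probe sets used. All 3 other class I chains fell too: HLA-C by 1.14, HLA-G by 1.00 and HLA-F by 0.80, with limma adjusted p from 4.93e-14 to 6.74e-11.

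Genes that supply and load class I peptides moved less uniformly, with 6 lower, 4 higher and 4 not called of 14. PSME1, an activator subunit of the proteasome, fell by 1.20 and PSMB8, an immunoproteasome subunit, by 0.77, while B2M, the light chain of all class I molecules, fell by 0.21 (limma adjusted p = 1.97e-14, 1.86e-12 and 1.74e-06). Among the 4 tested genes of class II antigen processing, 3 rose and 1 fell. CTSS, cathepsin S, which cuts the invariant chain, was 5.24 higher (SE 0.156, limma adjusted p = 8.99e-16), and SPPL2A, which cleaves its membrane stub, was 1.39 higher (adjusted p = 1.55e-15, limma). LGMN, a lysosomal protease, fell by 0.54 (limma adjusted p = 1e-06).

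With FHL2 shRNA in A375M2, the class I members and the DR and DP beta chains were lower than with GFP, and HLA-DMB and CD74 did not pass the test. The same GFP arrays serve this comparison, the shNFYA comparison and the PMEL comparison, so the p-values of the members chosen there are not independent of the choice. HLA-E differed by -0.89 (SE 0.0408, limma adjusted p = 6.44e-13) and HLA-B by -0.76 (SE 0.0338, limma adjusted p = 3.82e-13). For HLA-DRB1 the difference was -0.44 (SE 0.0474, adjusted p = 9.64e-08, limma), and for HLA-DPB1 -0.30 (SE 0.0395, adjusted p = 1.46e-06, limma). The 95% interval of the difference was -0.09 to 0.13 for HLA-DMB and -0.17 to 0.12 for CD74 (limma adjusted p = 0.732 and 0.739). So 4 of 6 members were lower and 0 higher, where 85.4% of all genes were called, 41.2% higher and 44.2% lower: a call in itself sets a gene apart little in this comparison, and the array differences described above move with it.

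Of the 27 other antigen presentation genes, 17 fell and 5 rose with FHL2 shRNA in A375M2 (median -0.28, against -0.03 over all genes). The class I chains HLA-C, HLA-G and HLA-F fell by 0.88, 0.74 and 0.62 (limma adjusted p from 2.67e-12 to 3.47e-09). Of the 6 other class II genes, 4 fell on the probe sets used: HLA-DOA by 1.09, HLA-DRB4 by 0.54, HLA-DMA by 0.42 and HLA-DQB1 by 0.17. On its dimmer probe set 215666_at HLA-DRB4 was higher instead, at 5.91, 6.08 and 6.13, against 5.18, 5.33 and 4.80 in GFP arrays. HLA-DMA is the partner chain of HLA-DMB. The alpha chains HLA-DRA (0.09, limma adjusted p = 0.0557) and HLA-DPA1 (0.03, limma adjusted p = 0.411) did not pass the test. On its dimmer probe set 213537_at HLA-DPA1 was lower, at 10.41, 10.32 and 10.34, against 10.81, 10.86 and 10.96 in GFP arrays. With each array centred on its median, 2 of the 6 were higher and 3 lower. Of the chaperones of class I assembly PDIA3 fell by 0.92 and CALR by 0.61, and PSME1 fell by 0.77, while the peptide-trimming protease ERAP2 rose by 2.04 (limma adjusted p from 2.80e-15 to 5.46e-10). The 3 probe sets of CALR gave differences between -2.24 and -0.02. CTSS rose by 2.99 and SPPL2A by 1.37, as they did in shNFYA, and LGMN and CTSL, cathepsin L, fell by 0.56 and 0.28.

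**Figure D2:**
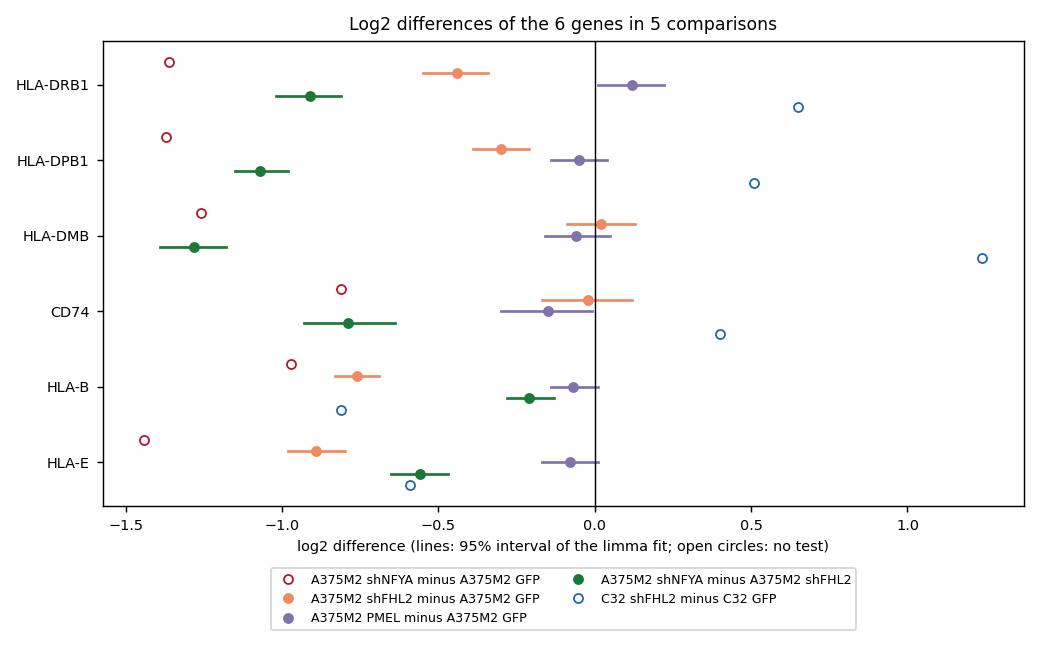
Log2 difference (horizontal axis) of each of the 6 genes (rows) in 5 comparisons (colours, listed in the legend); filled points have a test and carry the 95% interval of the limma fit, and open circles have none. HLA-DMB and CD74 lie near 0 for A375M2 shFHL2 minus GFP and at -1.28 and -0.79 for shNFYA minus shFHL2, while HLA-B and HLA-E are below 0 in all 3 shRNA comparisons against GFP.

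With PMEL against GFP, 0 of the 6 genes passed the limma test, where 40.0% of all genes were called, 22.1% higher and 17.8% lower. For 2 of the 6 the 95% interval, which is not adjusted, left out 0, and no share of all genes is given for that measure. The differences ran from -0.15 for CD74 (95% interval -0.30 to -0.01, limma adjusted p = 0.0697) to 0.12 for HLA-DRB1 (0.01 to 0.22, limma adjusted p = 0.0625). HLA-E differed by -0.08 on its brightest probe set (limma adjusted p = 0.12), but by 0.31 on 200904_at, where it passed the test (limma adjusted p = 0.00114). Without the related replicate 3 of both groups, 29.8% of all genes were called and still 0 of 6 members. Of the 27 other antigen presentation genes 7 fell, 4 rose and 16 were not called. The largest among the named ones were CTSS, lower by 0.81, HLA-DOA, lower by 0.42, and TAPBP (tapasin, which bridges class I to the peptide transporter), higher by 0.32 (limma adjusted p = 0.000525, 0.0023 and 0.000725).

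Both shRNA arms of A375M2 were also compared with each other. Both groups had the high 18S signal and low values in common. The shNFYA arrays are also those of the comparison that chose 4 of the members, by their lower signal there. A lower signal of those 4 was thus favoured by the choice, and their p-values are not an independent test. For HLA-DMB and CD74 the values behind the choice are not recorded, so the same may hold. All 6 genes were lower in shNFYA than in shFHL2, where 70.3% of all genes were called, 38.4% higher and 31.8% lower. The class II pathway members had the larger differences: -1.28 for HLA-DMB (SE 0.0488, limma adjusted p = 2.18e-13), -1.07 for HLA-DPB1 (SE 0.0395, limma adjusted p = 1.54e-13), -0.91 for HLA-DRB1 (SE 0.0474, limma adjusted p = 1.46e-11) and -0.79 for CD74 (SE 0.0652, limma adjusted p = 7.63e-09). HLA-E was lower by 0.56 (adjusted p = 1.44e-09, limma) and HLA-B by 0.21 (adjusted p = 3.20e-05, limma). The arrays of the groups did not overlap for any of the 6, with no share of all genes to set beside this.

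The other class II genes followed the same direction, with all 6 lower in shNFYA than in shFHL2 and a median of -0.85, against 0.03 over all genes. HLA-DOA differed by -3.54, HLA-DQB1 by -0.92, HLA-DPA1 by -0.89 and HLA-DRA by -0.81 (limma adjusted p from 3.38e-15 to 2.60e-11). With values under log2 4 set to 4, HLA-DOA differed by -3.18. The class I chains HLA-C and HLA-G differed by -0.26 each and HLA-F by -0.19 (limma adjusted p = 5.61e-05, 0.000125 and 0.00372). Of the peptide supply and loading genes, 6 were lower and 5 higher of 14, with PDIA3 higher by 1.01 and CALR by 0.78, and ERAP2 lower by 1.46.

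In C32, FHL2 shRNA went with higher class II and lower class I signal, given here as a description for the members. HLA-DMB was 1.24 higher than with GFP, HLA-DRB1 0.65, HLA-DPB1 0.51 and CD74 0.40, while HLA-B differed by -0.81 and HLA-E by -0.59. The groups did not overlap for any of the 6, again with no share of all genes beside it. Of all genes 62.5% were called, 32.3% higher and 30.2% lower. Of the 2 leukocyte markers, PTPRC differed by -0.83 (limma adjusted p = 1.41e-06), opposite to the class II genes, and LYZ by 1.98 (limma adjusted p = 0.000321), or 1.34 with values under log2 4 set to 4, in the direction of the class II genes. The spike-in controls added to the RNA averaged 5.96 in C32 shFHL2 arrays, against 9.37 in C32 GFP arrays; their part in these values was not tested.

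Genes outside the 6 have a test, on lists chosen with earlier results of these data known. In C32 they too were split by class, but HLA-C, HLA-G and HLA-F have probe sets that are not separate from HLA-B and HLA-E. Their fall is thus no independent support for that of the class I members. Of the 6 other class II genes 5 rose, with a median of 0.63 against 0 over all genes. HLA-DRA had 14.06, 14.13 and 14.15 in C32 shFHL2 arrays, against 12.66 and 12.83 in C32 GFP arrays, a difference of 1.37 (SE 0.0492, limma adjusted p = 1.94e-13). HLA-DRB4 rose by 0.80, HLA-DQB1 by 0.71 and HLA-DPA1 by 0.47 (limma adjusted p from 2.42e-09 to 1.51e-08), and HLA-DOA was at 2.39 to 2.43 in both groups. All 3 other class I chains fell: HLA-G by 0.77, HLA-F by 0.73 and HLA-C by 0.60 (limma adjusted p from 1.33e-09 to 1.16e-08). The assembly chaperones CALR, PDIA3 and CANX, calnexin, fell by 1.33, 0.96 and 0.63, and PSMB8 rose by 0.73. Of the processing genes CTSS rose by 1.11, and CTSL, SPPL2A and LGMN fell by 0.68, 0.35 and 0.35 on the probe sets used. SPPL2A was higher instead on 227682_at, with 10.73, 10.65 and 10.81, against 10.27 and 10.56 in C32 GFP arrays. It was also higher on 228478_at, with 9.93, 9.93 and 10.13, against 9.79 and 9.74, so its direction depends on the probe set.

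**Figure D3:**
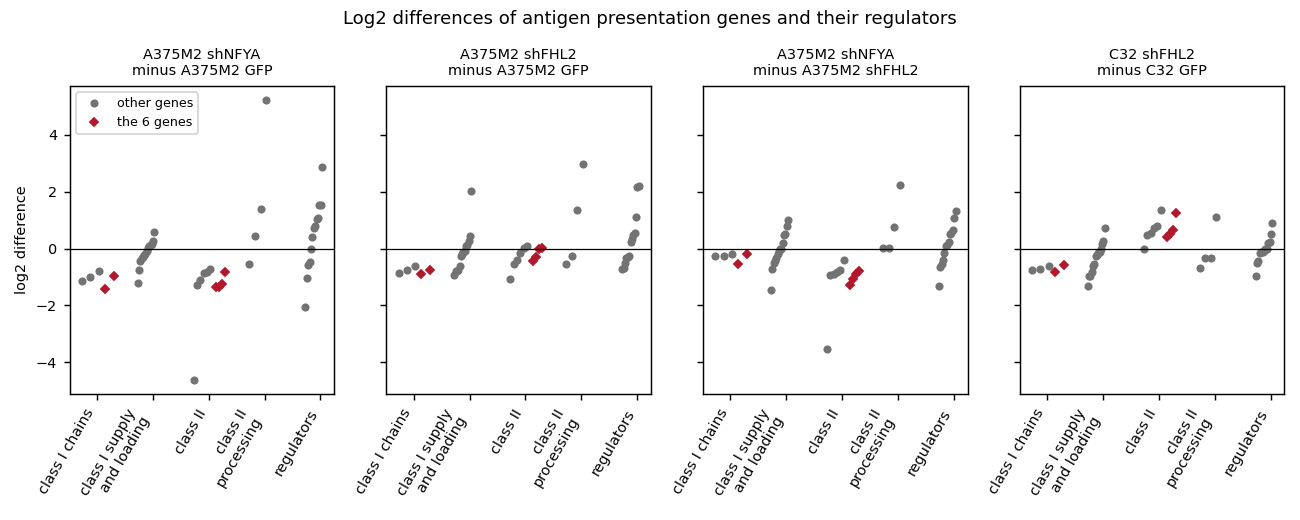
Log2 difference (vertical axis) of each tested gene of 5 gene lists (horizontal axis) in 4 comparisons (panels); red diamonds are the 6 genes and grey points the other listed genes. Class I chains lie below 0 in all 4 panels, whereas class II genes lie below 0 for shNFYA against either A375M2 arm and at or above 0 for C32 shFHL2.

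Under the GFP vector itself, C32 had less signal than A375M2 for all 6 genes. HLA-DMB differed by -2.47, CD74 by -1.80, HLA-DRB1 by -0.90, HLA-B by -0.70, and HLA-E and HLA-DPB1 by -0.31 each. These are a description with no test, since the A375M2 GFP arrays are also those of the comparison that chose 4 of the members. Of all genes 85.9% were called between the lines, 38.5% higher and 47.4% lower in C32. HLA genes vary between people, and probes are built on reference alleles. The 6 probe sets of HLA-DQB1 disagreed between the lines: 209480_at was 6.56 and 7.23 in C32 GFP arrays, against 2.44 in all 3 A375M2 GFP arrays, while 211656_x_at was 5.52 and 6.23 in C32 GFP, against 13.30, 13.07 and 13.22 in A375M2 GFP arrays. Within A375M2 alone they disagreed in size as well, with -3.11 on 211656_x_at and -0.17 on 212998_x_at for shFHL2 against GFP.

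The response to FHL2 shRNA was then compared between the lines as an interaction, the C32 difference minus the A375M2 difference. It holds the C32 comparison and the A375M2 GFP arrays, so the members have no test here, and it holds the arrays that stand apart in A375M2. The value was 1.22 for HLA-DMB, 1.10 for HLA-DRB1, 0.81 for HLA-DPB1 and 0.42 for CD74. For HLA-E it was 0.29 on the brightest probe set and 1.13 on 200904_at. HLA-DRB1 and HLA-DPB1 were higher with FHL2 shRNA in C32 and lower in A375M2, while HLA-E was lower in each line and less so in C32. For HLA-B it was -0.05 on the brightest probe set but 0.44 on 208729_x_at. Of all genes 80.2% were called, 42.1% higher and 38.1% lower. On the probe sets used, the value was 1.34 for HLA-DRB4, 1.28 for HLA-DRA, 0.96 for HLA-DMA, 0.88 for HLA-DQB1 and 0.44 for HLA-DPA1. The response of these other class II genes was thus higher in C32 (limma adjusted p from 6.21e-12 to 8.28e-07). HLA-DOA was under log2 4 in both C32 groups, so its value is its A375M2 difference with the sign turned. Of the other class I chains HLA-C alone passed the test, with 0.29 (limma adjusted p = 0.000895).

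The factors known to act at these promoters were set beside the members. In A375M2 shNFYA arrays NFYA differed by -2.06 from GFP arrays (SE 0.0941, limma adjusted p = 4.30e-13), while the partner subunits NFYB and NFYC were higher, by 1.53 and 1.03 (limma adjusted p = 1.13e-12 and 2.07e-11). RFX5 was lower by 1.04, RFXAP higher by 2.87 and RFXANK not called (-0.02, limma adjusted p = 0.646). CIITA, the coactivator of class II genes, measured 7.56, 7.52 and 7.73 in shNFYA arrays, against 6.96, 6.95 and 6.74 in GFP arrays, a rise of 0.72 (limma adjusted p = 1.16e-05) in the arm with the lowest class II signal of the line.

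With FHL2 shRNA in A375M2, CIITA rose by 1.10, RFXAP by 2.21 and IRF1, an interferon-induced activator of class I genes, by 2.18, while RFX5 fell by 0.50 and NFYA by 0.73 (limma adjusted p from 5.17e-14 to 1.04e-06). The fall of NFYA was larger on 228433_at, with 6.8, 6.49 and 6.31, against 8.4, 8.65 and 8.42 in GFP arrays. NFYB was higher by 0.47, and NFYC and RFXANK differed by -0.31 and -0.26, all called as well. In shNFYA against shFHL2, CIITA was lower by 0.39 (adjusted p = 0.00549, limma), RFX5 lower by 0.54 and NFYA lower by 1.33, and NFYC and NFYB were higher by 1.33 and 1.06. In C32 CIITA was 7.19, 6.82 and 7.14 with FHL2 shRNA, against 6.0 and 6.32 with GFP, a rise of 0.89 (limma adjusted p = 7.64e-06). There IRF1 fell by 0.96, while NFYB rose by 0.50 (limma adjusted p = 4.77e-05) and RFXAP by 0.24. RFX5 differed by -0.14 (adjusted p = 0.0131, limma), and NFYA, NFYC and RFXANK did not pass the test. On 202964_s_at RFX5 was 6.59, 6.78 and 6.76 in C32 shFHL2 arrays, against 7.17 and 7.4 in C32 GFP arrays, a larger fall. With PMEL against GFP in A375M2, where 40.0% of all genes were called, CIITA was higher by 0.37 and RFX5 by 0.22 (limma adjusted p = 0.0152 and 0.000441). CIITA was 7.11, 7.26 and 7.39 in PMEL arrays, against 6.96, 6.95 and 6.74 in GFP arrays, so the linked replicate 3 arrays were furthest apart. Without replicate 3 of both groups, 4 of 13 tested regulators were called higher instead of 7. NLRC5, the class I coactivator, was under log2 4 in all arrays but 1 A375M2 shFHL2 array at 4.23, and did not enter the tests.

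Interferon-stimulated genes, which often move with class I genes, were counted beside the members. Of 8 tested with limma, 5 rose and 2 fell in A375M2 shNFYA against GFP, 6 rose and 1 fell in A375M2 shFHL2 against GFP, and 6 fell and 0 rose in C32 shFHL2 against GFP.

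**Figure D4:**
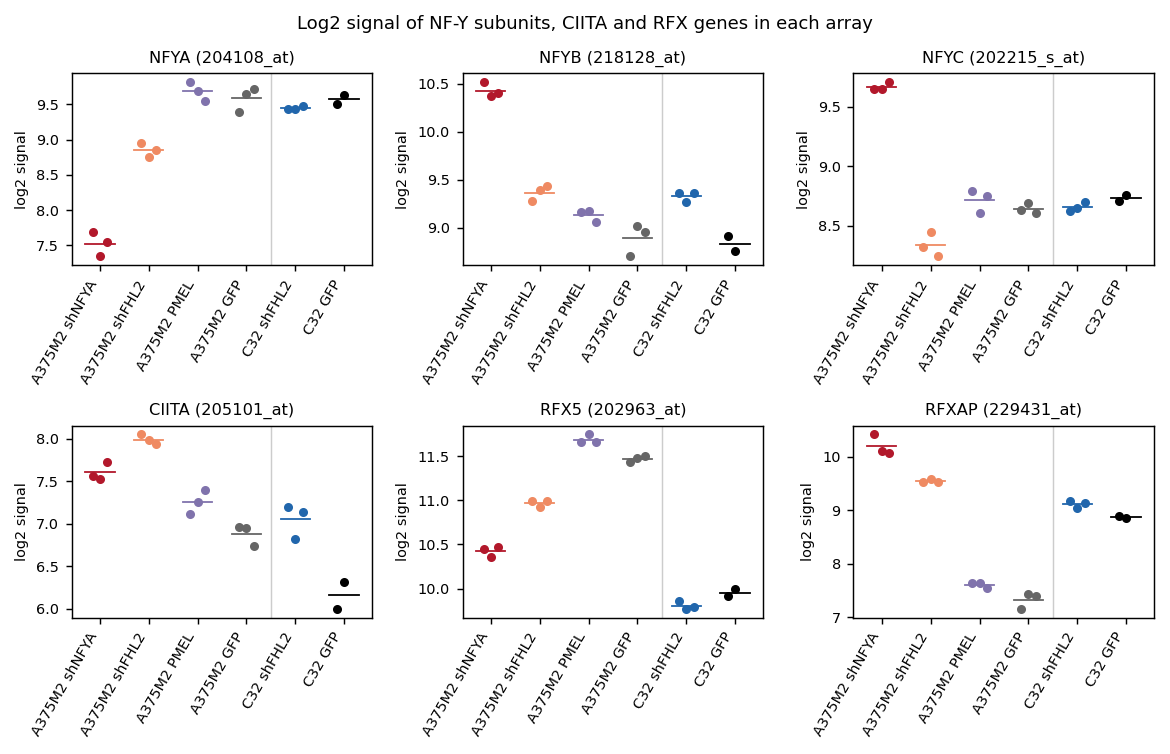
Log2 signal (vertical axes, each with its own range) of 3 NF-Y subunits, CIITA, RFX5 and RFXAP in the 6 groups (horizontal axes); points are arrays, lines are group means, and C32 GFP has 2 arrays. NFYA is lowest and NFYB and NFYC are highest in A375M2 shNFYA arrays, and CIITA is higher in each shRNA arm than in the GFP arrays of its line.

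Across the 17 arrays, which form 6 groups and share 2 lines, the members' patterns were set against each other as a description. Pearson's r was 0.944 between HLA-DMB and CD74, 0.877 between HLA-DPB1 and HLA-DRB1, 0.772 between HLA-B and HLA-E and 0.756 between HLA-E and HLA-DRB1. It was 0.682 between HLA-B and CD74, 0.674 between HLA-E and HLA-DPB1 and 0.641 between HLA-DRB1 and HLA-DMB, and the other 8 pairs lay between 0.056, for HLA-DPB1 and CD74, and 0.559, for HLA-B and HLA-DMB. Among all tested genes outside the lists, HLA-DMB was most like PHF14, PCYOX1L and POLR2H (r of 0.973, 0.972 and 0.964) and CD74 most like IMPDH2, ASTN2 and ST3GAL4 (0.988, 0.982 and 0.982). HLA-DPB1 was most like CENPN, CRYBG1 and FGF13 (0.978, 0.976 and 0.971), and HLA-DRB1 like SHQ1, PHYH and AHCYL1 (0.971, 0.967 and 0.961). The closest to HLA-B were NANOS1, BCAS3 and STAT6 (0.991, 0.991 and 0.987), and to HLA-E CRTAP, ANTXR1 and LPCAT2 (0.989, 0.988 and 0.986).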

How the data were processed

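RNA was hybridised to 18 Affymetrix 3′ expression arrays, and per the submitters' processing notes the authors used GCRMA, in a version not stated, to make the deposited log2 values. Values of 23416 probe sets were used as deposited, with groups from the labels. Symbols came from the platform annotation, updated by Entrez ID. After leaving out probe sets that reached log2 4 in fewer than 3 arrays, the brightest probe set on average stood for each gene, which left 10918 genes. The 6 group means over 17 arrays were estimated by limma 3.58.1 (lmFit and trended eBayes, R 4.3.3, 11 residual degrees of freedom), with Benjamini-Hochberg adjustment over all genes within each comparison and calls at an adjusted p under 0.05. Precision is limited by the number of arrays, with a median SE of 0.0711 on the log2 scale within A375M2 and 0.0795 in C32. The script was tested on simulated data. The members and gene lists were chosen with earlier results of these data known. Named beside the members are up to 4 called genes with the smallest adjusted p per list and comparison, the NF-Y, RFX, CIITA, NLRC5, FHL2 and PMEL genes, and the 3 genes most correlated with each member. Some listed genes were not analysed here, and genes on multi-gene probe sets only were left out. Alternatives were other filters, scalings, probe set choices, array sets, thresholds and a replicate block.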

Additional observations from a re-analysis of the deposited data

Results flagged for a closer look

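With FHL2 shRNA against GFP, HLA-DRB1 and HLA-DPB1 moved in opposite directions in C32 and A375M2 on their single-gene probe sets. The arrays did not overlap in either line, but the share of all genes without overlap is not given here. On 204670_x_at, annotated to HLA-DRB1 and HLA-DRB4, the A375M2 shFHL2 and GFP arrays overlapped. For HLA-DRB1 the differences were 0.65 in C32 and -0.44 in A375M2, 1.10 apart, and for HLA-DPB1 they were 0.51 in C32 and -0.30 in A375M2, 0.81 apart. The difference between the lines was not tested for the members, and 80.2% of all genes were called in the interaction. The cause was not tested.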

How the results depend on the processing

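The counts of the 27 other antigen presentation genes stayed within 1.5 times of those reported under the array sets, filters, floor, quantile scaling, probe set choices, variance models, stricter adjusted p and replicate block, with 1 exception: with each array centred on its median, 9 rose in A375M2 shFHL2 against GFP instead of 5. Centring shifted the median of all genes by up to 0.107. With a 2-fold minimum, 2 rose and 5 fell in A375M2 shNFYA against GFP, 3 and 1 in A375M2 shFHL2 against GFP, 0 and 0 in PMEL against GFP, 2 and 2 in shNFYA against shFHL2, 2 and 1 in C32 shFHL2 against GFP, 3 and 10 in C32 GFP against A375M2 GFP, and 4 and 4 in the interaction. For same-numbered arrays r of their deviations ran from -0.998 to 0.097 over 40 pairs, and for other arrays from -0.259 to 0.553 over 80 pairs. The -0.998 belongs to replicate 3 of A375M2 GFP and PMEL, which are linked as described above and also enter the other pairs. No same-numbered pair had an r above 0.097, so no pairing by number was seen. With the replicate block 86.5% of all genes were called in shNFYA against GFP, and no call of a member changed.

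Among the members, HLA-DMB in A375M2 shFHL2 against GFP, not called, turned to -0.01 without replicate 3 of A375M2 GFP, with or without that of PMEL, and lay between -0.01 and 0.05 with single arrays left out; CD74 there became 0.07 with centring. In PMEL against GFP, HLA-E turned to 0.31 with the probe set of largest variance and 0.07 with the mean of its probe sets. In the interaction HLA-B turned to 0.44 and 0.19 under these choices. In PMEL against GFP the members gained calls under some settings: CD74 with only the groups compared (-0.15), centring (-0.17) and the mean of probe sets (-0.47), HLA-B with the largest variance (-0.20) and the mean of probe sets (-0.14), HLA-DRB1 without GFP replicate 1 (0.16) and HLA-E without GFP replicate 2 (-0.12). The cause was not tested. Signals under log2 4, such as those of NLRC5, hold no order.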
